A study of Homo sapiens with 33 samples.

Results

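The tight junction genes examined here were 9 of the 58302 genes in the expression matrix, picked by symbol: 6 claudins (CLDN1, CLDN3, CLDN4, CLDN11, CLDN12 and CLDN15), occludin (OCLN), the scaffold ZO-1 (TJP1) and the junctional adhesion molecule JAM-A (F11R). All 9 were found once in the matrix, and 8 of them reached 100 CP20M (counts per 20000000 reads) in at least 1 library, the exception being CLDN3. The matrix held 33 RNA-seq libraries of 6 established human cell lines grown in RPMI-1640 with serum: 14 libraries from cells kept in 0.1% DMSO for 9 or 10 days, 14 from cells kept as long in 1 µM palbociclib, 4 from palbociclib-treated cells left without drug for 48 h (washout) and 1 from untreated MeT-5A cells. Palbociclib inhibits CDK4 and CDK6, the kinases that start the inactivation of the retinoblastoma protein pRb. H2052 and H28 (sarcomatoid) and H2452 and MSTO-211H (biphasic) are malignant pleural mesothelioma lines whose cell cycle palbociclib arrests. MPP89, a mesothelioma line with mutated RB1, and MeT-5A, mesothelial cells immortalised by SV40, are the resistant lines. In MeT-5A SV40 inactivates pRb, and the authors used the line as a model of cells deficient in pRb. Treated and control cells came from numbered experiments with 2 pairs for H2052 and MPP89, 3 for H2452, H28 and MSTO-211H, and 1 for MeT-5A. A class of lines therefore stands on 4 sensitive and 2 resistant lines. MeT-5A is the only line that is not a mesothelioma, and it does not stand for normal mesothelium.

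Tight junctions seal the space between neighbouring cells of an epithelium or mesothelium. Claudins are their strands: tetraspan membrane proteins, some of which close the paracellular path (CLDN1, CLDN3, CLDN4, CLDN11) while others, such as CLDN15, form channels for small cations. Occludin and JAM-A are further membrane components, and ZO-1 ties the strands to actin filaments. Claudins are best known from epithelia, and mesothelial cells, which line the pleura, also carry them. In bulk RNA a lower level per cell and fewer cells with the transcript cannot be told apart.

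The upstream 250 bases of CLDN1, the member that rose with palbociclib in each sensitive line, of CLDN11, the member whose level differed most between lines, and of CLDN4, which was highest in H28, are shown to give the DNA just before the annotated starts. The sequences are from RefSeq (GRCh38.p14), 5′ to 3′ on the strand of the gene, for the intervals chr3:190322447-190322696 (minus strand), chr3:170418618-170418867 (plus strand, the upstream of the 2 RefSeq starts) and chr7:73830746-73830995 (plus strand). Capitals mark matches, on either strand, to the searched letters.
CLDN1: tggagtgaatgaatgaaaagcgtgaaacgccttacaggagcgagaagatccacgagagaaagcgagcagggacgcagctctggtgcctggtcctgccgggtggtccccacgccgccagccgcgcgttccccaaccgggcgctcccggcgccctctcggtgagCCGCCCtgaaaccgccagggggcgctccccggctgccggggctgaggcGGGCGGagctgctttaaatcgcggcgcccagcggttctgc
CLDN11: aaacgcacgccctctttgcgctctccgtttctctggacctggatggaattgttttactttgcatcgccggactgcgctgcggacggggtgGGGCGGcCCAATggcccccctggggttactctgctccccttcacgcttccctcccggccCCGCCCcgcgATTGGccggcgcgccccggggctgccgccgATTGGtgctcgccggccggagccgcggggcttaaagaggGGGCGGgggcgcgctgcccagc
CLDN4: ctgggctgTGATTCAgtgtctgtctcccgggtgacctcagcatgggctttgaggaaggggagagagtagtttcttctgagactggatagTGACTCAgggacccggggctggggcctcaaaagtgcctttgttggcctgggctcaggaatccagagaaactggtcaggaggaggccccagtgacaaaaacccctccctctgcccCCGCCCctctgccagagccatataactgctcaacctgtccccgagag
The GC box was searched as GGGCGG on both strands, the CAAT box by the letters CCAAT, and the AP-1 motif by TGANTCA. The E-box known for SNAI and ZEB factors was searched as CACCTG, the TEAD motif by GGAATG, and the core promoter box by TATAAA. No match overlapped another in these 3 windows. The CLDN1 window held GGGCGG 2 times and none of the others. The CLDN11 window held GGGCGG 3 times and CCAAT 3 times, and the CLDN4 window held TGANTCA 2 times and GGGCGG 1 time. Of 35116 RefSeq windows of the same length, 42.6% held GGGCGG, 32.0% held CCAAT and 6.57% held TGANTCA, so a GC box or CCAAT letters were common and the TGANTCA letters were not. CACCTG, present in 17.5% of all windows, was found in windows of OCLN and TJP1 and in none of the claudin windows, GGAATG (11.9%) and TATAAA (10.7%) in no member window. TGANTCA was also found 1 time in the CLDN15 window, which is not printed. A match is a run of letters only. F11R had no window and is named without sequence.

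The members lie on 5 chromosomes (GRCh38, GENCODE 44). CLDN1 (chr3:190305707-190322446, minus strand, 4 exons in its MANE Select transcript) and CLDN11 (chr3:170418868-170454733, plus strand, 3 exons) are on chromosome 3. CLDN3 (chr7:73768997-73770270, minus strand) and CLDN4 (chr7:73799542-73832690, plus strand), both with 1 exon in their MANE Select transcript, are neighbours on chromosome 7, where CLDN12 (chr7:90383721-90513402, plus strand) and CLDN15 (chr7:101232092-101238820, minus strand) also lie. OCLN is at chr5:69492292-69558104 (plus strand), TJP1 at chr15:29699367-29968915 (minus strand) and F11R at chr1:160995211-161021343 (minus strand).

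The cells were first compared in DMSO, which shows the junction genes each line carries without the drug. TJP1 was abundant in every line, and CLDN1, CLDN4 and CLDN11 separated the lines. All 8 tested members differed among the 6 lines (limma F test, FDR under 0.05, with the top line more than 1.5 times the bottom line), but 94.9% of the 17091 genes tested did so too, so this count says nothing particular about junction genes. Neighbours in an order of lines are called apart below where their means differed by more than 2 pooled replicate SD on the log2(CP20M + 10) scale.

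**Figure D1:**
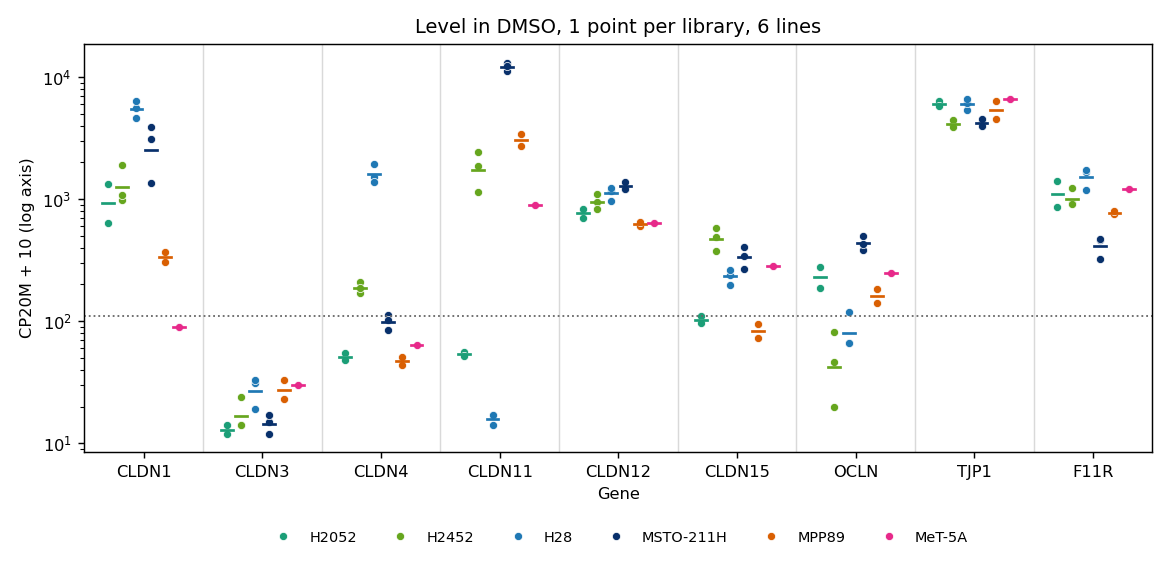
Levels of the 9 genes in DMSO on a log axis of CP20M + 10, 1 point per library and a bar at the mean of the logs, coloured by line; the dotted line is the filter at 100 CP20M. CLDN11 runs from 4 to 13120 CP20M, TJP1 only from 3870 to 6593, and all CLDN3 points lie under the filter.

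CLDN1, a sealing claudin, had DMSO levels of 4633, 5574 and 6405 CP20M in H28, 1340, 3861 and 3111 in MSTO-211H and 965, 1076 and 1907 in H2452. H2052 gave 631 and 1325, MPP89 294 and 356, and MeT-5A 79. The 4 sensitive lines were thus higher than both resistant lines with no overlap, and the last steps of the order, H2052 to MPP89 (1.47 log2 units) and MPP89 to MeT-5A (1.91), exceeded 2 SD (SD 0.56), while the steps among the sensitive lines did not. No test of the classes was run on DMSO levels, and the share of all genes that separate them was not counted. The untreated MeT-5A library had 152 CP20M, above the MeT-5A library in DMSO.

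CLDN11, known from myelin and Sertoli cell junctions, spanned the widest range, 764-fold on the CP20M + 10 scale. MSTO-211H had 11117, 13120 and 12341 CP20M, MPP89 2704 and 3400, H2452 1128, 1855 and 2419, and MeT-5A 891. H2052 had 46 and 42 CP20M, and H28 had 4, 7 and 7. Each step in this order exceeded 2 SD (SD 0.31), so all 6 lines stood apart. At the lowest depth that could be estimated 1 read was worth 1.57 CP20M, which leaves the H28 values at a few reads.

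CLDN4, a sealing claudin of many epithelia, was highest in H28, where it had 1519, 1912 and 1363 CP20M. H2452 had 199, 159 and 176 CP20M, and MSTO-211H had 103, 74 and 93. MeT-5A (54), H2052 (45 and 38) and MPP89 (41 and 34) formed the low end, where neighbours in the order did not differ beyond their spread. The steps from H28 to H2452, from there to MSTO-211H and from there to MeT-5A each exceeded 2 SD (SD 0.20). CLDN3, its neighbour on chromosome 7, had at most 41 CP20M in any library and at most 23 outside the untreated MeT-5A library, so it was not tested, and no order of lines could be read from it.

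CLDN12, a claudin without the usual tail that binds ZO-1, was present in all lines at similar levels, with means from 618 CP20M in MPP89 to 1261 in MSTO-211H (2.02-fold), and no neighbours in its order differed beyond their spread. CLDN15, the cation channel former, had means from 74 in MPP89 and 93.5 in H2052 to 328 in MSTO-211H and 473 in H2452, and only the step from H28 (224) to H2052 exceeded 2 SD (SD 0.26). OCLN ranged from 39.0 CP20M in H2452 to 426 in MSTO-211H with a wide replicate spread (SD 0.60), so that no neighbours stood apart. Its 3 H2452 libraries alone had 36, 10 and 71 CP20M.

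TJP1 was the most even member, 4118 CP20M in H2452 to 6593 in MeT-5A (1.60-fold), and 1 step in its order exceeded 2 SD, from MPP89 (5458) to MSTO-211H (4227). F11R had means from 410 in MSTO-211H to 1530 in H28 (3.67-fold), and the step above MSTO-211H, to MPP89 (762.5), was the only 1 over 2 SD. F11R overlaps the read-through gene AL591806.3 on the same strand, which carried 54.9% to 73.5% as many CP20M as F11R in each library and correlated with it at r = 0.992 over the 33 libraries, so the split of reads between these 2 genes is uncertain. CLDN12 overlaps GTPBP10 and CDK14 on its strand, and the same caution applies to it.

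Per kilobase of the MANE Select transcript, which allows genes to be set side by side, the leading claudin differed between lines. CLDN11 led in MSTO-211H (4421 ± 366 CP20M per kb, SD, n = 3), MPP89 (1107 ± 178, n = 2), H2452 (653 ± 235, n = 3) and MeT-5A (323, n = 1), and CLDN1 led in H28 (1607 ± 257, n = 3) and, by the mean, in H2052 (284 ± 142, n = 2), where CLDN12 was ahead of it in 1 of the 2 libraries. TJP1, at 573 to 917 CP20M per kb, varied far less, and OCLN stayed at 6.31 to 68.9. Lengths over all annotated exons gave the same leading claudin in each line, although single values moved, CLDN4 in H28 from 943 to 340 CP20M per kb.

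The response to palbociclib was then compared within experiments. CLDN1 rose in all 11 pairs of the sensitive lines and was the only member called over them. Its DMSO and palbociclib levels were 631 to 1562 and 1325 to 2502 CP20M in the 2 H2052 experiments. In H2452 they were 965 to 1622, 1076 to 2006 and 1907 to 3173. Each of these 5 pairs rose at least 1.66-fold. In H28 the levels were 4633 to 7571, 5574 to 13518 and 6405 to 9760. In MSTO-211H they were 1340 to 7900, 3861 to 9619 and 3111 to 10596. The palbociclib libraries lay above all DMSO libraries of H2052, of H28 and of MSTO-211H. In H2452 the lowest palbociclib library (1622) lay below the highest DMSO library (1907). The share of all genes without overlap was not counted.

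Over the 11 pairs the CLDN1 change was 1.16 ± 0.15 (log2, SE) on the log2(CP20M + 10) scale, a 2.24-fold rise, with pairs from 0.61 to 2.55 (limma with the experiment as block, adjusted p = 4.77e-05). This p-value takes the pairs, which came from 4 lines, as independent units. A gene was called at FDR under 0.05 with a fold above 1.5 or below 1/1.5. Of 16759 genes tested, 15.3% were called and 5.82% were called up, beside 1 of 8 members. The median gene moved by -0.11, and relative to it CLDN1 rose by 1.28. Of the called genes 38% rose, a share that became 66% with median-of-ratios and 64.2% with upper-quartile scaling of the libraries. CLDN1 was called under each of 20 other settings, among them line means as units. These gave values from 1.02 to 1.35 and limma adjusted p up to 0.0129.

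**Figure D2:**
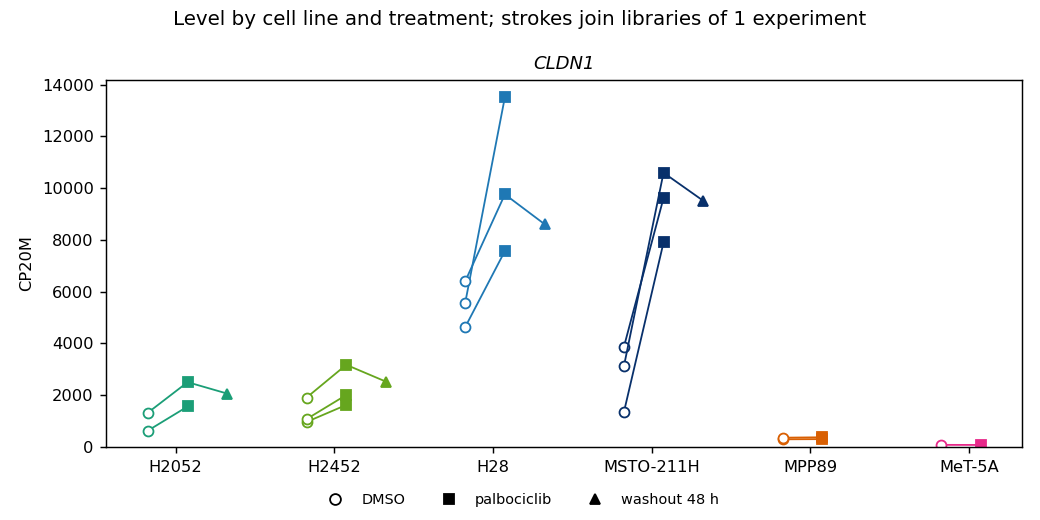
CLDN1 level in CP20M (linear axis from 0) by cell line: open circles DMSO, squares palbociclib, triangles washout, strokes joining libraries of 1 experiment. All 11 strokes of the sensitive lines rise from DMSO to palbociclib, the 3 of MPP89 and MeT-5A change by at most 16 CP20M, and the 4 washout points lie between DMSO and palbociclib.

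The size of the rise differed among the sensitive lines (F test, adjusted p = 0.0239; 38.6% of all genes passed this test). It was 1.88 ± 0.23 in MSTO-211H (adjusted p = 0.00711), where 9.29% of 14403 genes were called up, and 1.10 ± 0.13 in H2052 (adjusted p = 4.52e-05), where 7.47% of 14115 genes were. It was 0.86 ± 0.14 in H28 (adjusted p = 0.0063, 8.75% of 14073 genes called up) and 0.79 ± 0.07 in H2452 (adjusted p = 0.000771, 7.3% of 13828 genes called up). The H2052 call was lost without the filter on low values (adjusted p = 0.0615) and without the replicate block (0.0597), and the H2452 call without the block (0.121). MSTO-211H started below H28 in DMSO and reached 7900 to 10596 CP20M, within the range of H28 under palbociclib.

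In the resistant lines CLDN1 was low and its changes were within the spread between pairs. MPP89 had 294 to 301 and 356 to 372 CP20M and MeT-5A 79 to 76, a change of 0.02 ± 0.09 over the 3 pairs (adjusted p = 0.982). The response of the sensitive lines exceeded that of the resistant lines by 1.15 ± 0.31 (interaction, adjusted p = 0.0301). In this test 1.15% of 17517 genes (201 genes) were called higher, CLDN1 being the only member called. Rescaling raised that count to 580 genes (median-of-ratios) and 478 genes (upper-quartile). This call rested on few resistant libraries: without the MeT-5A pair or either MPP89 pair the adjusted p rose above 0.05, with values from 1.12 to 1.17. The units of this test were the pairs, not the lines.

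Apart from CLDN1, the calls by line fell in MSTO-211H (CLDN11, CLDN12 and OCLN) and H2452 (CLDN15). CLDN11 was tested by line in H2452 and MSTO-211H, since it stayed under 100 CP20M in H2052 and H28. In MSTO-211H it fell from 11117, 13120 and 12341 CP20M to 3825, 6766 and 5140 CP20M, without overlap between the groups (share of all genes not counted). The change was -1.25 ± 0.14 (adjusted p = 0.00633), that is, to 0.42-fold, and 13.8% of genes were called down in this line. In H2452 CLDN11 went from 1128 to 1145, 1855 to 3978 and 2419 to 2048, and the change of 0.29 ± 0.24 did not pass (adjusted p = 0.34). The F test for a different response among the lines was passed by CLDN11 (adjusted p = 0.00846).

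CLDN12 and OCLN also fell in MSTO-211H. CLDN12 went from 1208, 1210 and 1364 to 942, 696 and 640 CP20M (-0.74 ± 0.16, adjusted p = 0.0216), and OCLN from 370, 488 and 420 to 283, 292 and 200 (-0.71 ± 0.17, adjusted p = 0.0269). Neither gene overlapped between DMSO and palbociclib in that line, where 6668 of 14403 genes had an unadjusted p under 0.05 (limma) and the share without overlap was not counted. Both falls dropped below the fold threshold when libraries were rescaled by median-of-ratios or upper-quartile factors (-0.58 and -0.57 for CLDN12, -0.55 and -0.54 for OCLN). Both were also lost without the second or the third MSTO-211H pair (-0.72 and -0.57 for CLDN12, -0.70 and -0.55 for OCLN).

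CLDN12 in H28 went the other way, from 955, 1147 and 1219 to 1422, 1275 and 1326 CP20M (0.28 ± 0.12, adjusted p = 0.0993, not called). The F test for unequal responses was passed by CLDN12 (adjusted p = 0.00843), with -0.43 ± 0.13 in H2052 and -0.17 ± 0.08 in H2452, neither past the fold threshold. OCLN stayed at or below 110 CP20M in DMSO and palbociclib in H28 and H2452, and the F test for OCLN missed the threshold (adjusted p = 0.0545).

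CLDN15 fell in H2452, from 483, 569 and 366 to 261, 478 and 221 CP20M (-0.60 ± 0.14, adjusted p = 0.0128), where 12.6% of genes were called down. Over all 11 pairs it was lower in 8 and the change of -0.46 ± 0.14 had an adjusted p of 0.0126 but missed the fold threshold. By line it changed by -0.69 (MSTO-211H), -0.60 (H2452), -0.48 (H2052) and -0.07 (H28), and the F test for unequal responses did not pass (adjusted p = 0.408). In MSTO-211H 395, 258 and 332 became 149, 281 and 182 CP20M (-0.69 ± 0.28, adjusted p = 0.111), with the second pair moving up. Both MPP89 pairs were higher with palbociclib, 63 to 86 and 85 to 121 CP20M, and the test of a different response between sensitive and resistant lines did not pass for CLDN15 (-0.73 ± 0.28, adjusted p = 0.109). The H2452 call was lost under 8 of 11 other settings, among them those without the first pair (-0.47) or the third (-0.56).

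CLDN4 was not called in any line. It went down in 3 of 3 H2452 pairs, from 199, 159 and 176 to 125, 97 and 127 CP20M, with a change of -0.58 ± 0.13 (adjusted p = 0.0119) that just missed the fold threshold. In H28, where it is abundant, 1519, 1912 and 1363 became 2253, 1234 and 2489, and the second pair moved against the others (0.27 ± 0.26, adjusted p = 0.447).

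TJP1, the scaffold, and F11R, the adhesion molecule, were called in none of the lines at the deposited scaling. TJP1 was lower in 3 of 3 H28 pairs, 5393 to 3858, 6091 to 4824 and 6583 to 4086 CP20M, to 0.71-fold, below the fold threshold (-0.50 ± 0.10, adjusted p = 0.0112). In the other sensitive lines its changes were between -0.02 and 0.05, and the F test for different responses was passed (adjusted p = 0.0177). F11R was higher in 8 of 11 pairs (0.27 ± 0.10, adjusted p = 0.0351, below the fold threshold), and its F test for unequal responses did not pass (adjusted p = 0.334). It was higher in 3 of 3 H28 pairs, 1188 to 2235, 1670 to 1992 and 1733 to 2235 (0.51 ± 0.14, adjusted p = 0.0293), and this became a call under median-of-ratios (0.59) and upper-quartile (0.59) scaling, as did F11R in H2052 (0.62 and 0.65). These scalings raised the genes called up from 1232 to 1522 and 1545 of 14073 in H28. In H2052 the rise was from 1055 to 2055 and 2191 of 14115.

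**Figure D3:**
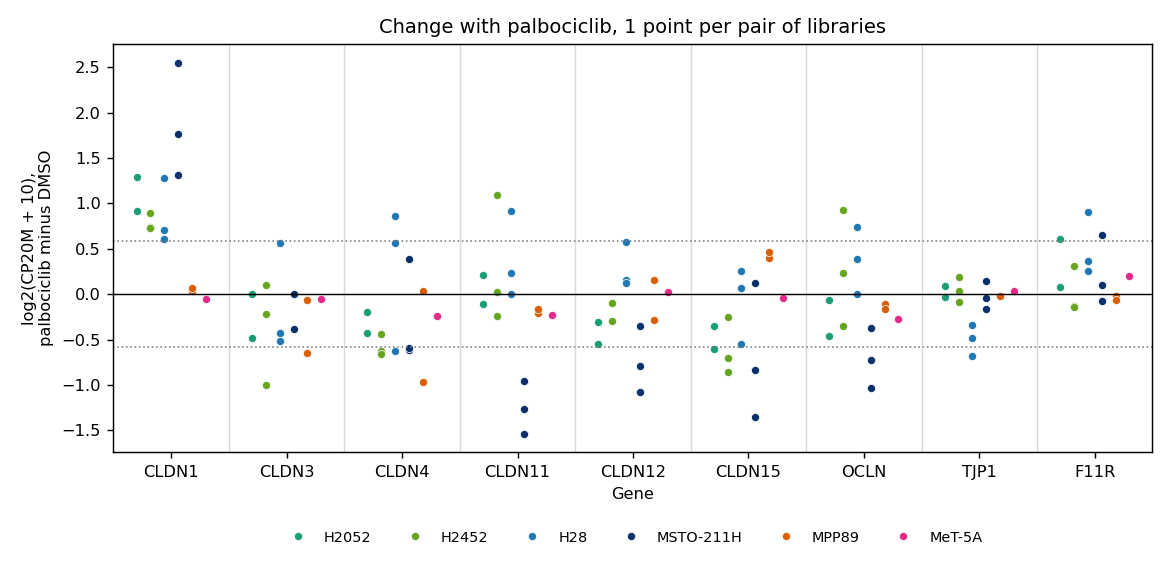
Palbociclib minus DMSO on the log2(CP20M + 10) scale for each gene, 1 point per pair of libraries, coloured by line; dotted lines mark 1.5-fold. The 11 CLDN1 points of the sensitive lines all lie above the upper dotted line, and the 3 CLDN11 points of MSTO-211H, from -1.54 to -0.95, lie below the lower one.

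Over the 3 resistant pairs no member was called (0 of 7 tested), and no gene at all was (0% of 15524 by limma, 1363 of them at an unadjusted p under 0.05). CLDN11 (-0.21 ± 0.04, adjusted p = 0.143) and CLDN15 (0.27 ± 0.12, adjusted p = 0.538) were the 2 members at an unadjusted p under 0.05. CLDN11 was lower in 3 of 3 pairs, 2704 to 2331 and 3400 to 3024 CP20M in MPP89 and 891 to 757 in MeT-5A.

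Washout was done once per sensitive line, in the 10-day experiment, so lines are the replicates. Cells were compared 48 h after removal of the drug with the palbociclib and DMSO libraries of the same experiment. CLDN1 went from 2502 to 2060 CP20M in H2052, 3173 to 2523 in H2452, 9760 to 8609 in H28 and 10596 to 9514 in MSTO-211H. It was lower after washout in 4 of 4 lines but above DMSO (1325, 1907, 6405 and 3111) in each of them.

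Against palbociclib the CLDN1 change was -0.24 ± 0.19 (adjusted p = 0.668), and against DMSO it was 0.77 ± 0.19 (adjusted p = 0.0299), the only member called in that comparison, where 3.08% of 16317 genes were called up. That call was lost when any of the 4 lines was left out (0.49 to 0.89), and the lowest value came without MSTO-211H. In the same 12 libraries palbociclib against DMSO gave 1.00 ± 0.19 (adjusted p = 0.00363), where 5.66% of genes were called up.

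In the washout experiments CLDN15 moved back in 4 of 4 lines. Its DMSO, palbociclib and washout levels were 86, 65 and 83 CP20M in H2052 and 366, 221 and 341 in H2452. H28 had 253, 170 and 230 CP20M in the same order, and MSTO-211H had 332, 182 and 248. In these experiments it was called lower with palbociclib (-0.61 ± 0.12, adjusted p = 0.00458), where 13.6% of genes were called down, and the change from palbociclib to washout was 0.44 ± 0.12 (adjusted p = 0.127), not called. The fall was lost under both rescalings (-0.39 each) and without H2452 (-0.58) or MSTO-211H (-0.54). The fall and the return share the palbociclib library of each line, so they are not independent. Over all 11 pairs CLDN15 fell in 8, and the 3 rises lay outside the washout experiments. They were 2 pairs of H28 (189 to 199 and 230 to 276 CP20M) and 1 of MSTO-211H (258 to 281).

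CLDN11 in MSTO-211H was 12341, 5140 and 6723 CP20M in DMSO, palbociclib and washout, and CLDN12 there was 1364, 640 and 811. Both stayed nearer to palbociclib than to DMSO. OCLN went from 420 to 200 and then 177, the only one of these 3 that did not turn. Across lines none of the 8 tested members was called between washout and palbociclib, beside 1.61% of all genes (263 genes, all higher after washout, 2146 at an unadjusted p under 0.05), and CLDN15 was the only member at an unadjusted p under 0.05. The 8 proliferation genes followed as a control (MKI67, TOP2A, CCNA2, CCNB1, CDK1, PLK1, BUB1 and AURKB) all fell with palbociclib over the 11 pairs (median -2.71) and all rose again with washout (median 2.502).

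**Figure D4:**
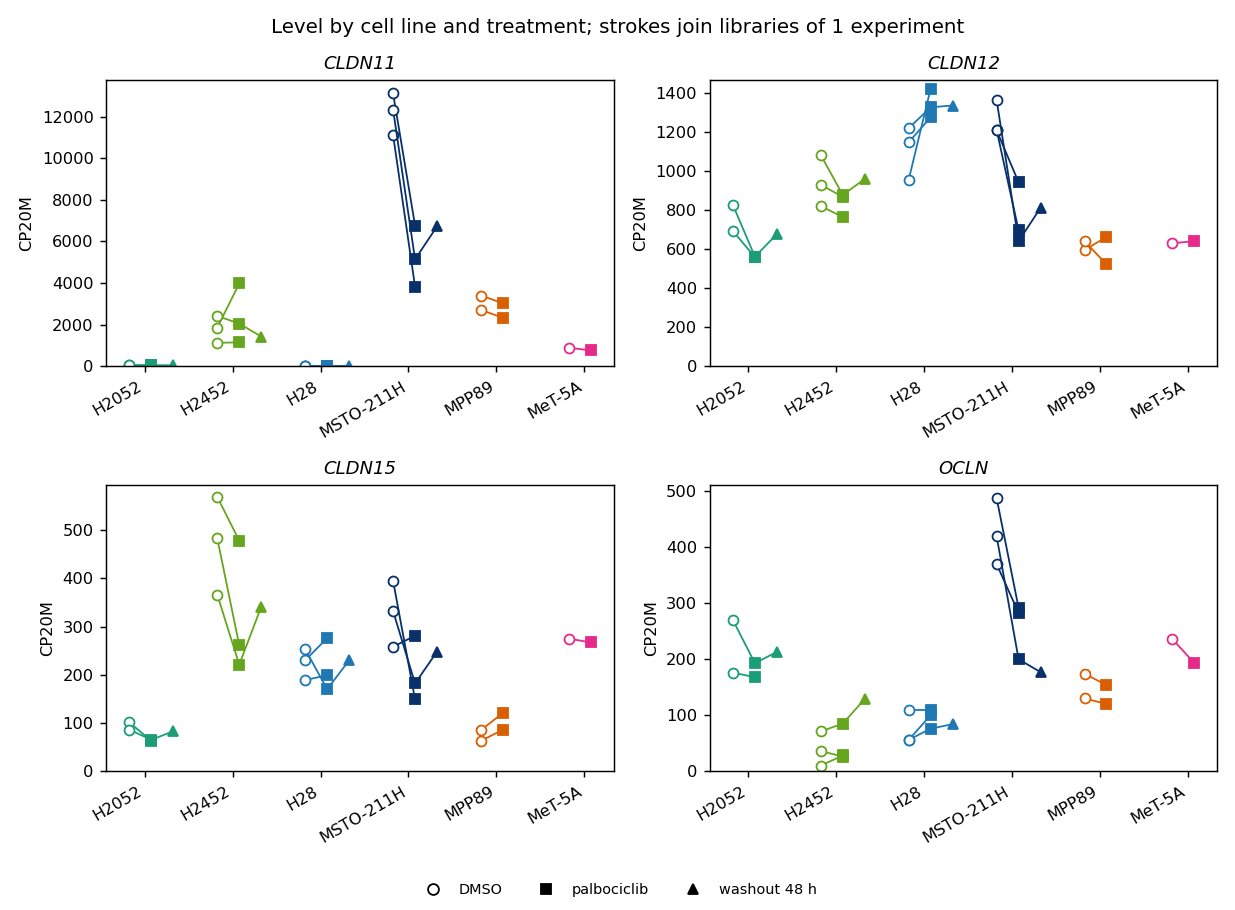
Levels of CLDN11, CLDN12, CLDN15 and OCLN in CP20M (linear axes from 0) by cell line, with circles for DMSO, squares for palbociclib, triangles for washout and strokes joining libraries of 1 experiment. CLDN11, CLDN12 and OCLN drop in all 3 MSTO-211H experiments, and the 4 CLDN15 washout points lie between palbociclib and DMSO.

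These changes shifted the make-up of the claudins, given as each gene's share of the summed CP20M per kb of all 24 claudins. CLDN1 made up 12.97% ± 5.03 (SD, n = 3) of MSTO-211H claudin transcripts in DMSO and 52.8% ± 4.54 with palbociclib, while CLDN11 went from 73.5% ± 2.25 to 36.3% ± 5.06. In H2052 the CLDN1 share went from 36.4% ± 12.4 to 59.4% ± 7.73 (n = 2) and the CLDN12 share from 28.5% ± 1.45 to 16.5% ± 3.28. In H2452 CLDN1 went from 19.2% ± 4.47 to 30.5% ± 9.81 and CLDN11 from 32.7% ± 6.86 to 37.0% ± 13.1. CLDN11 led in all 3 H2452 DMSO libraries, but CLDN1 led in palbociclib libraries 1 (30.2% against 26.7%) and 3 (40.5% against 32.6%), so the higher CLDN11 mean rests on library 2 (51.7%).

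In H28 CLDN1 led in every library (47.6% ± 5.41 and 52.8% ± 6.07), and CLDN4 had the next highest mean (28% ± 4.2 and 22.4% ± 10.2). In MPP89 CLDN11 held 63.9% ± 0.55 in DMSO and 60.8% ± 3.76 with palbociclib (n = 2), and CLDN1 5.45% ± 0.10 and 6.12% ± 0.17. The lead passed from CLDN11 to CLDN1 in 3 of 3 MSTO-211H pairs and 2 of 3 H2452 pairs, and from CLDN12 to CLDN1 in 1 of 2 H2052 pairs, while no pair of the other lines changed its leading claudin. With lengths over all annotated exons the H2452 means also passed from CLDN11 (32.5%) to CLDN1 (41.0%). The shares were not tested.

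**Figure D5:**
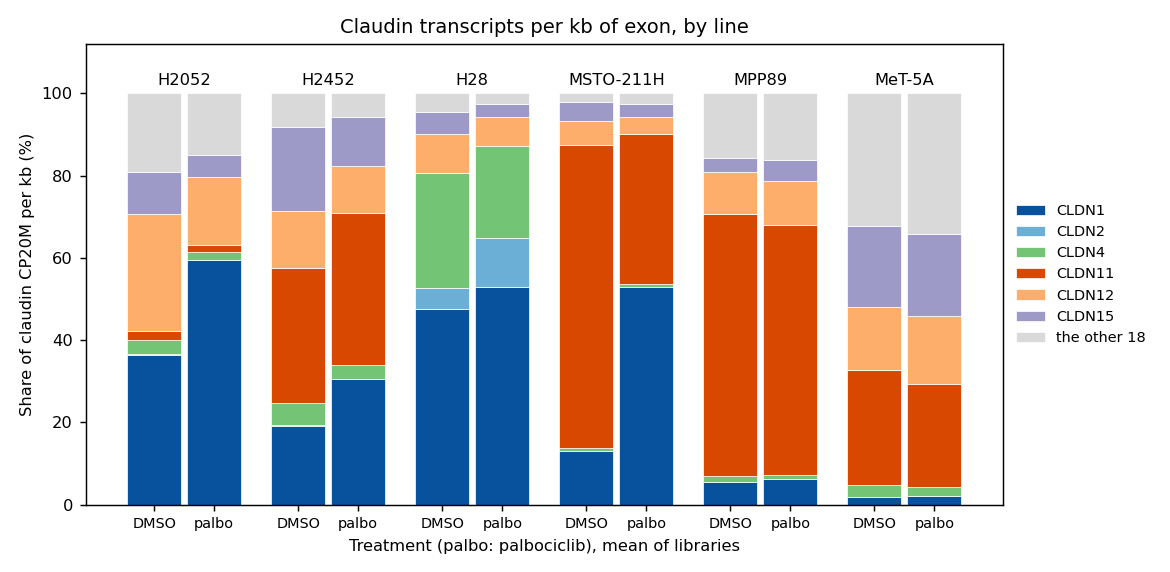
Share of each claudin (percent of the summed CP20M per kb of MANE Select transcript over 24 claudins, mean of the libraries) in DMSO and palbociclib by line; grey holds the other 18 claudins. The CLDN1 share in MSTO-211H goes from 12.97% to 52.8%, and the bars of MPP89 and MeT-5A hardly differ.

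Of the 18 claudins that are no members, 2 reached the filter in the sensitive pairs and neither was called over the 11 pairs. CLDN2, a cation and water channel former, was singled out after its values were seen: it had 247 to 1025 CP20M in the DMSO libraries of H28 and 364 to 4313 with palbociclib, ranges that overlap (1.69 ± 0.33 within pairs, adjusted p = 0.011), and at most 11 CP20M in DMSO or palbociclib in the other lines. CLDN14, the other of the 2 and also named after its values were seen, had at most 156 CP20M in any library. It was called up in H2052 (1.42 ± 0.30, adjusted p = 0.00211) but not in MSTO-211H (1.41 ± 0.64, adjusted p = 0.138). CLDN17 and CLDN8 were at 0 in all 33 libraries. In all, 11 of the 24 claudins reached 100 CP20M in some library.

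Of the 80 other genes on the 6 lists of the junction, 53 were tested over the 11 pairs, and 2 were called up and 1 down, beside 15.3% of all genes called in either direction. ILDR2, a protein of the angulin family at tricellular contacts, was called up (0.86 ± 0.28, adjusted p = 0.0184), from 25 to 80 CP20M in DMSO to 223 to 336 with palbociclib in MSTO-211H and from 109 to 163 to 159 to 209 in H28. It stayed at or below 18 CP20M in H2052 and H2452. MAGI3, a scaffold of the membrane-associated guanylate kinase family, was called down (-0.75 ± 0.11, adjusted p = 8.03e-05), for example from 599 to 1091 CP20M to 330 to 380 in H2452, and missed the fold threshold after rescaling (-0.56 and -0.57).

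JUP, plakoglobin of adherens junctions and desmosomes, was called up (1.44 ± 0.39, adjusted p = 0.00786). It went from 6 to 22 CP20M in DMSO to 115 to 513 in MSTO-211H and from 305 to 535 to 1127 to 2283 in H28, and from 453 to 654 to 445 to 458 in H2052, so the rise was not shared by all lines. The list of regulators of junction genes (SNAI, ZEB, GRHL, OVOL and others) had 0 of 8 tested genes called (median -0.19, all genes -0.11), and the polarity and signalling list 0 of 12 (median -0.10). The other tight junction membrane proteins had a median of 0.13 over 8 tested genes, the plaque and scaffold genes -0.12 over 13, and the adherens junction genes -0.05 over 10. Named for a rescaled fit, and so after their values were seen, JAM2, CXADR, PARD3B and NECTIN2 were called up with median-of-ratios (0.71, 0.67, 0.61 and 0.74). That scaling called up 1697 of all 16759 genes, against 976 as deposited, so these calls say little particular about junction genes.

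Over the 33 libraries, the genes whose log2 level ran most like a member's were found by Pearson's r among 17803 genes, a description in which the libraries of a line share their origin, so r follows the order of lines as well as treatment. For CLDN1 they were IL32 (0.915), TNIP1 (0.914) and KIAA0100 (0.907), for CLDN4 SGPP2 (0.963), NDUFA4L2 (0.958) and KIF21A (0.956), and for CLDN11 AC060766.1 (0.946), AP4B1 (0.945) and LINC00667 (0.941). CLDN12 ran with DHX32 (0.857), FOXK1 (0.852) and FRYL (0.851), CLDN15 with MORN1 (0.918), MKLN1 (0.912) and AC008264.2 (0.906), and OCLN with USP46 (0.881), TTC7B (0.879) and TSPAN6 (0.878). TJP1 had the lowest values, FLRT3 (0.799), ENY2 (0.787) and NCKAP5 (0.786), and F11R ran with AL591806.3 (0.992), HIF1AN (0.910) and AL591845.1 (0.905). CLDN3 values (AL355574.1 0.875, THUMPD3 0.865, NR2C2 0.861) rest on a few reads. Among pairs of members the highest r was that of CLDN4 with CLDN12 (0.77) and the lowest that of CLDN11 with F11R (-0.83).

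The labelled cell type was checked by its markers. All 8 mesothelial markers reached 100 CP20M in some library, but not in every line. In the DMSO and palbociclib libraries 8 reached it in H2452 and 7 in H2052. In H28 5 did (not MSLN, CALB2 or PDPN), as did 5 in MSTO-211H (not UPK3B, PDPN or KRT19). The sum of the list ran from 11195 to 92675 CP20M in DMSO and 13862 to 140604 with palbociclib. CALB2 was the only 1 of the 8 called over the 11 pairs (1.69 ± 0.41, adjusted p = 0.00367, median of the list 0.32). WT1 had -0.43 ± 0.18 over these pairs (adjusted p = 0.0573) and was called down in H2452 (-1.20). Of the lung epithelial markers 0 of 5 reached 100 CP20M (at most 88), of the endothelial markers 2 of 4 (at most 269) and of the haematopoietic markers 1 of 4, CD68, which many cell types express. CD3E was at 0. The column totals were 20007662 to 20021400 and carry no depth. Gaps in the low values gave 12770000 to 19830000 reads for 23 libraries, and within a group at most 4.33% of genes had identical values in a pair of libraries.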

How the data were processed

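RNA from 6 cell lines was sequenced as directional paired-end libraries. Per the labels and methods, the authors trimmed reads with Trimmomatic 0.36, mapped them with STAR 2.5.3 to GRCh38 (Ensembl release 90) and counted them with HTSeq 0.9.1. The deposited values are a normalized score: counts scaled to 20000000 reads per library (CP20M) and stored as whole numbers. They are not counts of reads, so limma 3.58.1 (lmFit, eBayes with trend, R 4.3.3) on log2(CP20M + 10) replaced DESeq2, which the authors used. Fold changes on this scale understate those of low genes. The share of all genes without overlap between groups was not counted, so a lack of overlap only describes the values. A gene entered a fit if any library of that fit had 100 CP20M or more, with the experiment as block (the line for washout) and Benjamini-Hochberg adjustment over all genes of the fit. Deviations of same-numbered DMSO and palbociclib libraries from their group means correlated at r = 0.205 to 0.854, each over 0.1, so the numbers were taken to pair them. Differently numbered ones gave -0.854 to 0.287, the highest in MSTO-211H (DMSO 3 with palbociclib 1), above 2 same-numbered pairs there. Centring on group means pushes these values down. In H2052 and MPP89, with 2 replicates, they mirror the same-numbered values and add nothing. Washout libraries were tied to the 1 experiment per line that the labels give as 10 days. The authors describe the replicates as independent experiments, and p-values measure the spread between the libraries of these experiments. CP20M per kb used MANE Select lengths from GENCODE 44. The fits were checked on simulated data with 200 genes changed by 1 log2 unit. Over the 11 sensitive pairs 97.5% were recovered, and 65.5% in the sensitive against resistant test. The F test among sensitive lines recovered 75% and washout against palbociclib 84.5%. A member not called in these fits may thus still have changed. Alternatives were another pseudocount (1, 50), filter, scaling or variance model, no block, and leaving out each pair. Over the 11 sensitive pairs, line means as units were a further alternative. Named are all members, per junction list at most 3 genes called in each direction over the 11 sensitive pairs, and per member the 3 genes of highest r; others are named as seen afterwards. The members and lists were chosen with earlier results of these data known, and markers only checked the cell type. Depth, where it could be estimated, covers counting error only.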

Additional observations from a re-analysis of the deposited data

Results flagged for a closer look

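The response to palbociclib differed between groups of lines for 4 of 8 tested members. CLDN1 rose more in sensitive than in resistant lines, by 1.148 on the log2(CP20M + 10) scale (limma interaction over 14 pairs), a difference called with 3 resistant pairs at hand. In this interaction test 1.15% of all genes were called higher, and the CLDN1 call was lost without any 1 of the resistant pairs. Among the 4 sensitive lines the F test of different responses gave an adjusted p of 0.0239 for CLDN1, which rose in 11 of 11 pairs and most in MSTO-211H. It gave 0.00846 for CLDN11 (lower in 3 of 3 MSTO-211H pairs), 0.00843 for CLDN12 (lower in 3 of 3 MSTO-211H and higher in 3 of 3 H28 pairs) and 0.0177 for TJP1 (lower in 3 of 3 H28 pairs). The F test was passed by 38.6% of all genes, so the count of members says little particular about junction genes. No group held 4 or more libraries, so single libraries could not be tested for standing apart.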

How the results depend on the processing

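Over the 11 sensitive pairs 1 member was called under all 20 alternatives. The signs of 3 members not called turned: CLDN11 (0.013 and 0.008), OCLN (0.105 and 0.094) and TJP1 (0.068 and 0.052) with median-of-ratios and upper-quartile scaling, and OCLN when leaving out pairs (-0.166 to 0.03, the latter without MSTO-211H replicate 3). These scalings moved the median of all genes from -0.11 to 0.06 and 0.05, and the share of called genes that rose from 38% to 66% and 64.2%. Genes called up went from 1055 to 2055 and 2191 in H2052 and from 1232 to 1522 and 1545 in H28. Genes called down went from 1745 to 1177 and 1003 in H2452 and from 1987 to 1201 and 1158 in MSTO-211H. For the other settings no share of all genes is given, so the counts below only describe the members. The number of members called in H2052 (main 1) was 2 with either scaling and 0 with no filter or no replicate block. In H2452 (main 2) it was 1 with pseudocount 50, no filter, the filter over 33 libraries or either scaling, 0 with no replicate block, and 1 to 2 when leaving out pairs (1 without replicate 1). In H28 (main 1) it was 2 with either scaling and 1 to 3 when leaving out pairs (3 without replicate 2). In MSTO-211H (main 4) it was 2 without a filter, with the filter over 33 libraries or with either scaling, and 2 to 4 when leaving out pairs (2 without replicate 3). The sensitive against resistant count (main 1) was 0 with no filter or no replicate block (CLDN1 adjusted p = 0.0957) and 0 to 1 when leaving out pairs. The count among lines (main 4) was 2 with no replicate block and 2 to 6 when leaving out pairs, 2 without H28 replicate 1. After washout against DMSO (main 1) it was 0 with no filter, no replicate block or any line left out. For palbociclib in those experiments (main 2) it was 1 with pseudocount 50 or either scaling, 0 with no replicate block and 1 to 3 when leaving out lines. The causes were not tested. Removing the block ended the CLDN1 call in H2052 (adjusted p = 0.0597), in H2452 (0.121) and in the washout experiments, and the CLDN15 calls in H2452 (0.181) and in the washout experiments. It kept CLDN1 over the 11 pairs (0.000116), in H28 (0.0361) and in MSTO-211H (0.0158), with the other MSTO-211H calls. No library depth could be estimated for 10 libraries.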
